A study of Homo sapiens with 8 samples.

Results

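Transcripts of 8 cell adhesion molecules were followed in normal human lung fibroblasts that received medium from fibroblasts undergoing oncogene-induced senescence. The genes were chosen by symbol, as *ICAM1*, *VCAM1*, *NCAM1*, *CDH2*, *CDH4*, *CDH6*, *CDH11* and *CDH13*, and all 8 were found among the 27696 genes counted. Of these, 7 were among the 13798 genes with enough counts to be tested, and *NCAM1* was not. *ICAM1* was 3.86-fold higher with medium of day 10, *VCAM1* was lowest with medium of day 4 and back near its starting level with medium of day 10, and *CDH13* was 2.63-fold higher with medium of day 10. None of these differences passed the main edgeR test, which compares groups alone. Each of them passed in edgeR when the experiment was taken into account as a replicate block, that of *VCAM1* at D4 and at D7. DESeq2, without a block, also called those of *ICAM1* and *VCAM1* but not that of *CDH13*.

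The recipient cells were unmodified IMR90, a primary fibroblast strain from fetal lung. The donors were IMR90 ER:RAS cells, which carry RAS fused to the ligand-binding domain of the estrogen receptor, so that 4-OHT (4-hydroxytamoxifen) switches the oncogene on and the cells become senescent. Recipients were kept for 3 days in donor medium taken at day 0, 4, 7 or 10 of 4-OHT, and the groups are called D0, D4, D7 and D10. Each of the 4 groups has 2 libraries, which makes 8 libraries of poly(A)-selected RNA. The RNA came from 2 independent experiments, and the replicate numbers were taken to mark them. D0, the control, also received medium from ER:RAS donors, so every group shares the donor line and differs in the day of induction. All recipients come from a single fibroblast strain, and whether each experiment used its own batch of medium is not given in the sources used here.

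Adhesion molecules hold cells to each other and pass signals inwards. ICAM1 and VCAM1 belong to the immunoglobulin superfamily and are ligands for integrins on leukocytes, and inflammatory cytokines acting through NF-κB are known to raise both in endothelial cells and fibroblasts. NCAM1 is a neural member of the same superfamily. Classical cadherins bind a cadherin of the same kind on the neighbouring cell in a calcium-dependent way and attach through catenins to actin, and CDH2 (N-cadherin) and CDH11 (OB-cadherin) are the cadherins best known from fibroblasts. CDH13 (T-cadherin) lacks the cytoplasmic tail, is held in the membrane by a lipid anchor and also binds adiponectin.

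Promoter sequence is shown for *ICAM1* and *VCAM1*, on which the results turn, since both are textbook targets of NF-κB. Their transcripts differed at D4, where the libraries of *VCAM1* were below those of D0 and the libraries of *ICAM1* overlapped with D0. Both were higher at D10 than at D7 in both experiments. The sequences are those of RefSeq on GRCh38.p14, which were at hand for 4 of the 8 genes, and positions count from the base before the transcript start (-1). Capitals mark kappaB matches (GGGNNTTCC or GGANNTTCC, or the NF-κB consensus of 10 bases) and TATA boxes (TATAAA), searched on both strands, so that TTTATA is a TATA box on the other strand. For *ICAM1*, GENCODE 29 starts the first exon 285 bases before the RefSeq start, so only 30 bases around each match are given, from chr19:10270924-10270953 and chr19:10271078-10271107 on the plus strand. For *VCAM1*, where both annotations give the same start, all 250 bases before it are given, from chr1:100719492-100719741 on the plus strand.
ICAM1 kappaB match: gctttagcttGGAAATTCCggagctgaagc
ICAM1 TATA box: ggtggctagcgcTATAAAggatcacgcgcc
VCAM1: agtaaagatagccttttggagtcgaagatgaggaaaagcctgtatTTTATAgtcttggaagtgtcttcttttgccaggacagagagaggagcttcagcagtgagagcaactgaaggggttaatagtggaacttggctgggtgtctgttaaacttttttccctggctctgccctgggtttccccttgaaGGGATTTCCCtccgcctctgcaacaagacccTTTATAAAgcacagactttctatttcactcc

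Within 250 bases before to 50 bases after the start, *ICAM1* had its kappaB match at -186 and *VCAM1* at -62, and both had a TATA box, at -30 and -29. The kappaB letters occur in 10.8% and the TATA letters in 11.5% of all 35116 promoters of that length. The *VCAM1* site also matches the NF-κB consensus of 10 bases, which 5.91% of promoters hold and which overlaps the kappaB match. The AP-1 letters TGANTCA, held by 7.71% of promoters, were in neither window. These are matches of letters and no measure of binding.

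Total counts were between 11708193 and 13395912 per library. Values are CPM (counts scaled by edgeR to a common library size after TMM normalization), given as D0, D4, D7 and D10 in experiment 1 and then in experiment 2, with the mean ± SD of the 2 libraries of a group. As a check of the cell type, all 9 fibroblast markers examined were above 1 CPM, and the defining markers of endothelium (*PECAM1*, *CDH5*, *KDR*), leukocytes (*PTPRC*) and epithelium (*CDH1*, *EPCAM*) were below 1 CPM in every library. On the other lists *CD14* of the 8 leukocyte genes was at 0.945 to 2.68 CPM, and *KRT19* of the 6 epithelial genes reached 1.94 CPM in D4 replicate 2. The endothelial list of 9 genes held 2 genes with a mean of at least 1 CPM, *VWF* and *TEK*, and its summed level was 79.1 to 91.0 CPM at D0, 42.9 to 53.7 CPM at D4, 70.7 to 71.3 CPM at D7 and 78.4 to 122 CPM at D10. The D10 library of experiment 2 stood apart. Its fibroblast markers summed to 20757 CPM against 42584 to 57448 CPM in the other 7 libraries. In it *COL1A1*, a chain of type I collagen, was at 1293 CPM against 9422 CPM in the D10 library of experiment 1. Between these 2 libraries the list did not differ evenly, since *FN1* (fibronectin) was at 11138 against 13748 CPM and *LUM* (lumican) was higher, at 257 against 167 CPM. Within experiment 2 all 9 markers were lower at D10 than at D0. *FN1* went from 13096 to 11138 CPM and *LUM* from 443 to 257 CPM. In experiment 1 all but *FN1* were also lower at D10 than at D0. There *COL1A1* went from 14484 to 9422 CPM, and *FN1* rose from 11241 to 13748 CPM.

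Against D0, the quasi-likelihood test of edgeR, adjusted by Benjamini-Hochberg over all 13798 genes, called none (0) of the 7 tested adhesion genes on any of the 3 later days, where 0% (D4), 0% (D7) and 0.29% (D10) of all genes were called. At an unadjusted p under 0.05 there were 1, 3 and 3 of the 7, where 2.96%, 4.34% and 7.94% of all genes were. With the experiment as a replicate block the same test called 1 (*VCAM1*), 1 (*VCAM1*) and 2 (*ICAM1* and *CDH13*), where 0.275%, 1.25% and 4.99% of all genes were called. DESeq2 called 1, 1 and 1, where it called 0.287%, 0.785% and 2.17% of all genes. Between neighbouring days, 0 adhesion genes were called at D7 against D4 and 0 at D10 against D7, where 0% and 0% of all genes were called, and 1 and 2 reached an unadjusted p under 0.05, as did 0.42% and 3.54% of all genes. The replicate block also called 0 in both, with 0% and 0.319% of all genes called, and DESeq2 called 0 and 1 (*VCAM1*), with 0.00361% and 0.446% of all genes called. The libraries of the 2 groups did not overlap for 4, 5 and 3 of the 7 genes on these days, where 22.3%, 28.9% and 31% of all genes did not overlap. The 3 comparisons with D0 share its libraries.

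**Figure D1:**
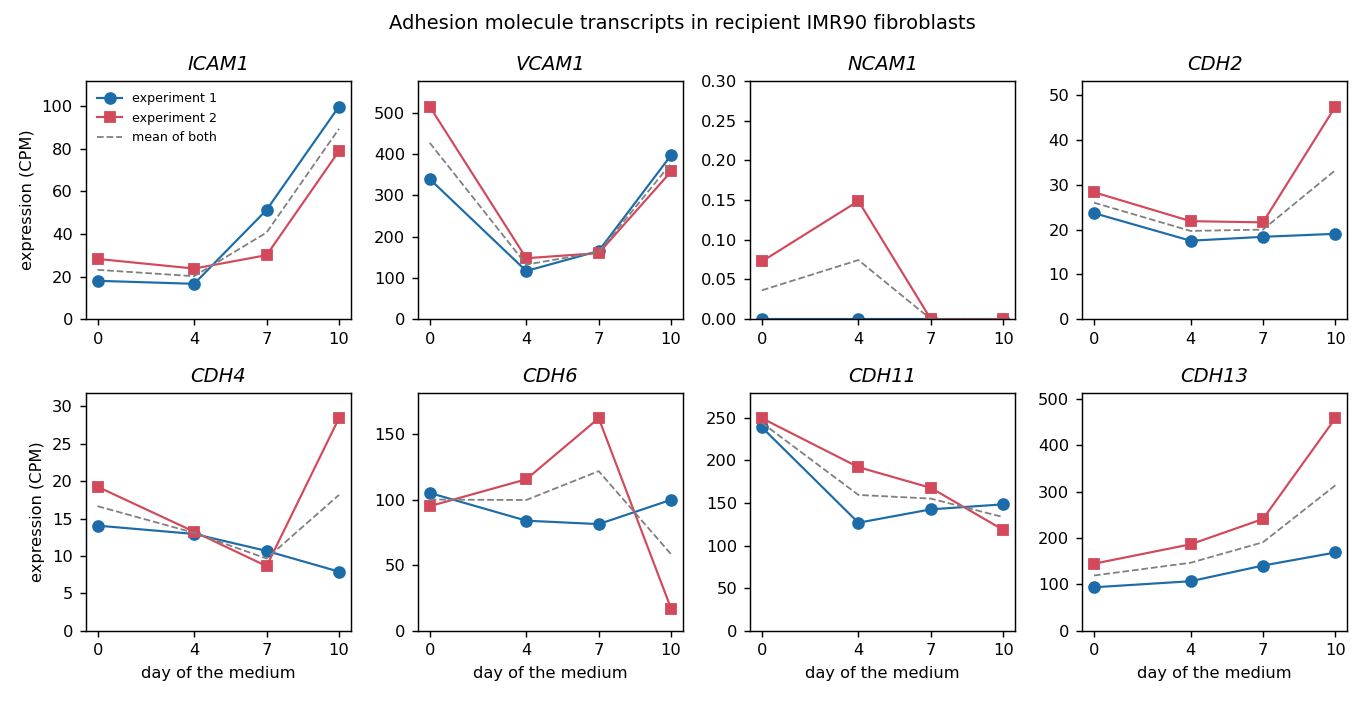
CPM (vertical axis, from 0) of the 8 adhesion genes by day of the donor medium (horizontal axis), with 1 line for each experiment and a dashed line for the mean of both. ICAM1 is highest at D10 in both experiments, VCAM1 is lowest at D4 in both, and CDH2, CDH4, CDH6 and CDH13 have their largest gap between experiments at D10.

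*ICAM1* (ENSG00000090339.8) lies on chromosome 19 from 10270835 to 10286615 of GRCh38. In experiment 1 it was at 18.0, 16.6, 51.3 and 99.8 CPM, and in experiment 2 at 28.3, 23.8, 30.04 and 78.9 CPM. Both D10 libraries were above all 6 others, and both D7 libraries were above both D0 libraries, by little in experiment 2. The mean went from 23.1 ± 7.27 CPM at D0 through 20.2 ± 5.07 and 40.7 ± 15.0 CPM to 89.4 ± 14.8 CPM at D10 (n = 2 each).

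At D10 the log2 fold change of *ICAM1* against D0 was 1.95 ± 0.36 (SE), with an adjusted p of 0.0779 from edgeR, which misses the threshold of 0.05. With the replicate block it was 1.94 with an edgeR adjusted p of 0.0106, and so *ICAM1* rose in the paired fit. In RNA from whole cultures, more transcript per cell and more cells that make it cannot be told apart. Within experiments the change was 2.46 and 1.48 on the log2 scale. Leaving out 1 library at a time, the blocked call held in 7 of 8 fits and was lost without D0 replicate 1, at an adjusted p of 0.0601. At D7 the log2 fold change was 0.81 ± 0.35, of which experiment 1 showed 1.503 and experiment 2 showed 0.09, with an edgeR adjusted p of 1, or 0.402 with the replicate block. At D4 it was -0.20 ± 0.35, within the spread of the libraries.

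The step from D4 to D7 was 1.01 ± 0.35 on the log2 scale and that from D7 to D10 was 1.14 ± 0.35 for *ICAM1*, and neither was called by edgeR (adjusted p = 1 and 0.9998) or with the replicate block (0.915 and 0.233). Over all 8 libraries its slope was 0.198 ± 0.042 log2 units per day of the medium, with an edgeR adjusted p of 0.0601, or 0.0279 with the replicate block, which lost the call without D0 replicate 1 or D10 replicate 1 (adjusted p up to 0.122). Of the exon bases of *ICAM1*, 23.6% are covered by 2 genes on the opposite strand, *AC011511.2* and *AC011511.5*, which had at most 4 counts in any library against 214 to 1262 counts for *ICAM1*. Other ICAM genes, named after their values were seen, were not called. *ICAM3*, *ICAM4* and *ICAM5* had log2 fold changes at D10 of 0.09, -0.15 and 0.69, each with an edgeR adjusted p above 0.9.

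*VCAM1* (ENSG00000162692.10) lies on chromosome 1 from 100719742 to 100739045. It was at 339.5, 117, 165 and 397 CPM in experiment 1, and at 515, 148, 160.0 and 358 CPM in experiment 2. All 4 libraries of D4 and D7 were below all 4 libraries of D0 and D10, and those of D0 and D10 overlapped. The mean went from 427 ± 124 CPM at D0 to 132 ± 21.9 CPM at D4 and 163 ± 3.64 CPM at D7, and it stood at 378 ± 27.9 CPM at D10 (n = 2 each).

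At D4 *VCAM1* was 3.23-fold lower than at D0, a log2 fold change of -1.69 ± 0.28, with changes of -1.54 and -1.80 within the experiments. The edgeR adjusted p was 0.739, at an unadjusted p of 0.000301 from the same fit, and with the replicate block the adjusted p was 0.0213. Thus *VCAM1* fell at D4 in the paired fit. That call was kept without D10 replicate 1 or without D10 replicate 2 and was lost without any of the 6 libraries of D0, D4 and D7, with adjusted p-values up to 0.277. The log2 fold change stayed between -1.94 and -1.39 in these 8 blocked fits.

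At D7 the log2 fold change of *VCAM1* was -1.40 ± 0.28, and -1.04 and -1.69 within the experiments, with an edgeR adjusted p of 0.307, or 0.0239 with the replicate block. The blocked call was kept in 5 of 8 fits that left out 1 library and was lost without D0 replicate 2, D7 replicate 1 or D7 replicate 2, with an adjusted p up to 0.395. From D7 to D10 *VCAM1* was 2.32-fold higher, with 1.27 and 1.16 on the log2 scale within the experiments. The edgeR adjusted p of that step was 0.773, and 0.0684 with the replicate block. At D10 *VCAM1* differed from D0 by -0.18 ± 0.27 on the log2 scale, higher in experiment 1 (0.23) and lower in experiment 2 (-0.53). No other annotated gene overlaps its exons. *TEK*, an endothelial receptor kinase, was also lowest at D4 in both experiments, at 88.1, 40.3, 66.2 and 120 CPM in the first and 77.3, 52.1, 69.4 and 74.9 CPM in the second, whereas *CDH5* had at most 5 counts in any library.

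*NCAM1* (ENSG00000149294.16, chromosome 11, 112961247 to 113278436) had 1 count in D0 replicate 2, 2 counts in D4 replicate 2 and 0 in the other 6 libraries. These counts are at or under the floor of 3 counts, which is 0.224 to 0.256 CPM in these libraries and covers counting error only. The gene was too low to be tested, and a difference between groups was not detectable at this depth.

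**Figure D2:**
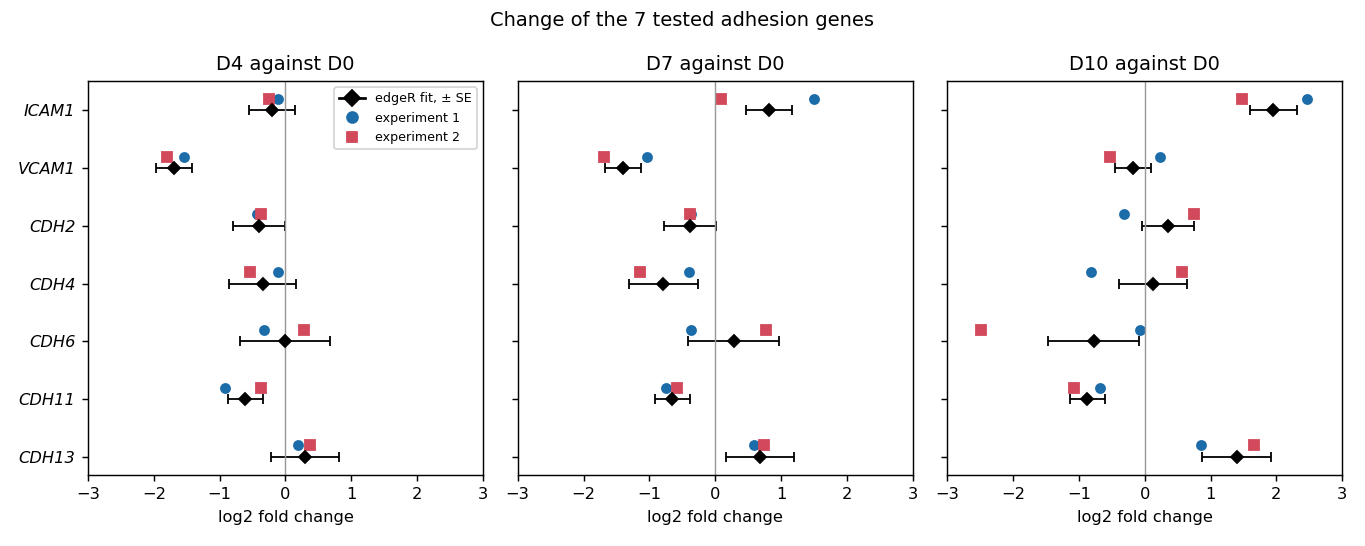
Log2 fold change against D0 (horizontal axis) of the 7 tested adhesion genes (rows) at D4, D7 and D10. Black diamonds with bars give the edgeR fit by group ± SE, and circles and squares the change within experiments 1 and 2. VCAM1 lies at -1.69 at D4 and -0.18 at D10, ICAM1 at -0.20 and 1.95.

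Among the classical cadherins, *CDH11* had the highest level per exon length at D0 and was lower with medium of every later day. *CDH11* (ENSG00000140937.13) lies on chromosome 16 from 64943753 to 65126112. It was at 239, 127, 142 and 148 CPM in experiment 1, and at 249, 192, 168 and 118 CPM in experiment 2. All 6 libraries of D4, D7 and D10 were below both D0 libraries. The log2 fold change was -0.61 ± 0.27 at D4, -0.65 ± 0.27 at D7 and -0.87 ± 0.27 at D10, where the 2 experiments showed -0.69 and -1.07.

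The edgeR adjusted p of *CDH11* was 1 at D4, 1 at D7 and 0.308 at D10, and with the replicate block it was 0.414, 0.263 and 0.0558, so no day passed in either fit. Leaving out 1 library at a time, its blocked log2 fold change stayed between -0.95 and -0.35 at D4 and between -0.72 and -0.59 at D7. At D10 it stayed between -1.18 and -0.57. Whether it was called depended on the library left out. Its slope was -0.083 ± 0.023 log2 units per day, with an edgeR adjusted p of 0.145, or 0.0559 with the replicate block. One gene on the same strand, *AC010533.1*, covers 1.9% of its exon bases and had at most 6 counts in a library.

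*CDH2* (ENSG00000170558.8, chromosome 18, 27950966 to 28177446) was at 23.7, 17.5, 18.4 and 19.1 CPM in experiment 1, and at 28.4, 21.9, 21.6 and 47.5 CPM in experiment 2. All 4 libraries of D4 and D7 were below both D0 libraries, and the D10 libraries lay on either side of them. The log2 fold change was -0.40 ± 0.40 at D4 and -0.38 ± 0.40 at D7, about the size of its SE on both days. At D10 it was 0.35 ± 0.40, made up of -0.31 in experiment 1 and 0.74 in experiment 2.

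*CDH4* (R-cadherin, ENSG00000179242.15, chromosome 20, 61252426 to 61940617), the closest relative of CDH2, was at 14.1, 13.0, 10.7 and 7.91 CPM in experiment 1, and at 19.3, 13.3, 8.65 and 28.4 CPM in experiment 2. It was lower with each later medium up to D7 in both experiments. Then at D10 it was the lowest of its experiment in the first and the highest in the second. The log2 fold change was -0.35 ± 0.51 at D4, -0.79 ± 0.52 at D7 and 0.12 ± 0.51 at D10, and none was called.

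*CDH6* (K-cadherin, ENSG00000113361.12, chromosome 5, 31193750 to 31329146) was at 105, 84.0, 81.3 and 99.9 CPM in experiment 1, and at 95.0, 116, 162 and 16.9 CPM in experiment 2. The D10 library of experiment 2 was below all 7 others, and the groups overlapped on every day. The log2 fold change was 0.00 ± 0.69 at D4, 0.28 ± 0.69 at D7 and -0.78 ± 0.69 at D10, where the experiments showed -0.07 and -2.48. Another gene on the same strand, *DUX4L51*, covers 8.96% of its exon bases, and 8.73% of its words of 50 bases occur in other genes, so some of its reads may not have been assigned.

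*CDH2*, *CDH4* and *CDH6* were not called on any day by edgeR or with the replicate block, with adjusted p-values of 0.566 and above. The D10 values of *CDH2*, *CDH4* and *CDH6* differed between the experiments. With 1 library per experiment at D10, which of the 2 departs cannot be told. All 9 fibroblast markers were lower at D10 than at D0 in experiment 2, as were all but *FN1* in experiment 1. In the D10 library of experiment 2, *COL1A1* and the summed markers were low. The part of that library's difference in these values was not tested. Without it, the log2 fold change at D10 was -0.45 for *CDH2*, -1.08 for *CDH4* and 0.00 for *CDH6*, and edgeR called none of them. With the block, which then leaves D10 to experiment 1 alone, it was -0.31 for *CDH2*, -1.03 for *CDH4* and 0.19 for *CDH6*. With the block and D10 replicate 1 left out in its place, it was 0.76 for *CDH2*, 0.75 for *CDH4* and -2.79 for *CDH6*.

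*CDH13* (ENSG00000140945.16) lies on chromosome 16 from 82626803 to 83800640. It was at 93.8, 107, 141 and 169 CPM in experiment 1, and at 145, 187, 241 and 459 CPM in experiment 2. It was higher with each later medium in both experiments, and both D10 libraries were above both D0 libraries. The mean went from 119 ± 36.0 CPM at D0 through 147 ± 56.3 and 191 ± 71.1 CPM to 314 ± 205 CPM at D10 (n = 2 each).

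Against D0, *CDH13* differed by 0.30 ± 0.52 (D4) and 0.68 ± 0.52 (D7) on the log2 scale. At D10 it was 1.40 ± 0.53, with an edgeR adjusted p of 0.492. With the replicate block the D10 change was 1.28 ± 0.21 with an adjusted p of 0.0104, and so *CDH13* rose in the paired fit. The changes within experiments were 0.85 and 1.66. The blocked call was lost only without D0 replicate 2, at an adjusted p of 0.213. It held without D10 replicate 2, with a log2 fold change of 0.90 that then rests on experiment 1 alone. Without a block and without that library the log2 fold change at D10 was 0.50.

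The slope of *CDH13* was 0.136 ± 0.044 log2 units per day, with an edgeR adjusted p of 0.252, or 0.00966 with the replicate block, and 0.099 without D0 replicate 2. Tested for a slope on the day of the medium, 0 of the 7 adhesion genes were called by edgeR, where 1.18% of all genes were. At an unadjusted p under 0.05 there were 3, where 9.76% of all genes were. With the replicate block 2 were called, *ICAM1* and *CDH13*, where 4.3% of all genes were, and DESeq2 also called 2, *ICAM1* and *CDH11*, where it called 2.97% of all genes.

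The experiments differed in the level of *CDH13*. Matched by day, it was higher in experiment 2 than in experiment 1 by 0.91 ± 0.15 on the log2 scale, higher in 4 of 4 pairs, with an edgeR adjusted p of 0.00337. This was the only call among the 7 genes, where 34.8% of all genes were called. That share is 4805 genes, and without D0 replicate 1 or D0 replicate 2 it was 2281 or 2121 genes, and without D4 replicate 1 or D4 replicate 2 it was 3005 or 2992, with *CDH13* still called. *CDH2* was higher in experiment 2 by 0.54 ± 0.19 with an edgeR adjusted p of 0.0545, and *CDH4* by 0.51 ± 0.31 with an adjusted p of 0.225. *ICAM1*, *VCAM1*, *CDH6* and *CDH11* had differences between -0.21 and 0.19, with adjusted p-values of 0.346 and above.

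**Figure D3:**
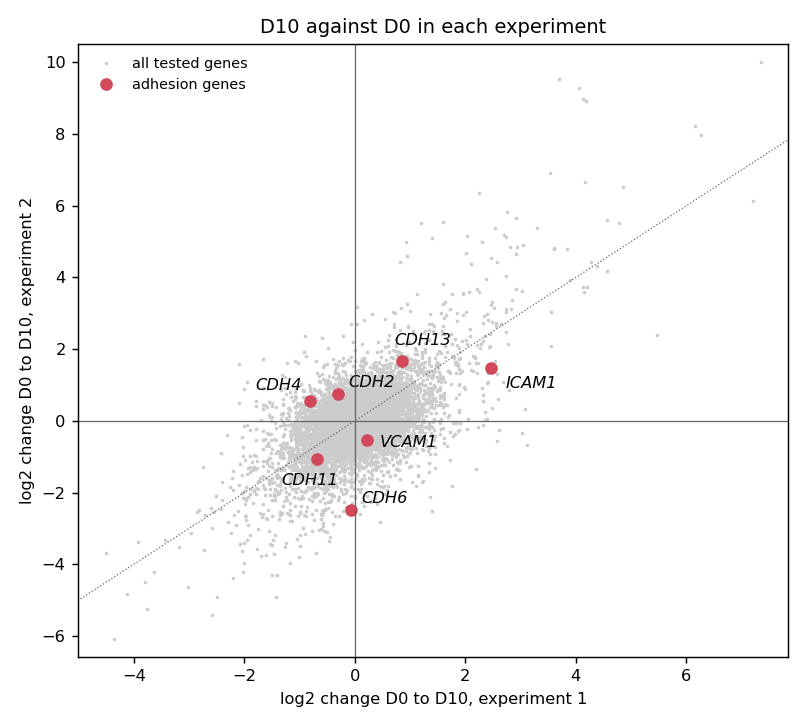
Log2 change from D0 to D10 in experiment 1 (horizontal) and in experiment 2 (vertical) for all 13798 tested genes in grey and the 7 tested adhesion genes in red, with a dotted line where both are equal. ICAM1, CDH13 and CDH11 lie in the quadrants of equal direction, VCAM1, CDH2 and CDH4 in those of opposite direction, and CDH6 moved in experiment 2 only (-2.48 against -0.07).

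Directions at D10 differed between the experiments for 3 of the 7 adhesion genes, *VCAM1*, *CDH2* and *CDH4*, and for 36.6% of all tested genes. At D4 and at D7 they differed for 1 of the 7, *CDH6* on both days, and for 41.3% and 37.6% of all genes. Each experiment has 1 library per day, so a difference between experiments on a single day has no replicate check. The slope on the day of the medium was compared between experiments in a fit that leaves 4 residual degrees of freedom, added after the data were seen. EdgeR called 0 of the 7 adhesion genes for a difference in slope, where 0% of all genes were called, and at an unadjusted p under 0.05 there were 0 of the 7 and 2.7% of all genes. The smallest unadjusted p from that fit was that of *CDH13* (0.0716, adjusted p = 0.993), whose slope was higher in experiment 2 by 0.073 ± 0.036 log2 units per day. For *VCAM1*, *CDH2* and *CDH4* the slope in experiment 2 differed from that in experiment 1 by -0.077 ± 0.112, 0.095 ± 0.057 and 0.120 ± 0.082 log2 units per day.

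Levels were compared between genes per kilobase of exon, over the union of the exons of all annotated transcripts. At D0 *VCAM1* had the highest level, 70.7 ± 20.5 CPM per kb, and *CDH11* followed with 18.2 ± 0.57 CPM per kb. *CDH13* (10.7 ± 3.22), *CDH6* (8.08 ± 0.57), *ICAM1* (6.24 ± 1.96), *CDH2* (5.26 ± 0.67) and *CDH4* (2.27 ± 0.50 CPM per kb) came next, and *NCAM1* was last. In this order the 2 libraries of *CDH13* and *CDH6* overlapped, as did those of *ICAM1* and *CDH2*, and the other neighbours did not.

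At D10 *VCAM1* was still highest, with 62.4 ± 4.61 CPM per kb. *CDH13* (28.1 ± 18.3 CPM per kb) and *ICAM1* (24.1 ± 3.99 CPM per kb) came next and overlapped, and both were above *CDH11* (9.96 ± 1.59 CPM per kb). *ICAM1* had been below *CDH11* in both libraries of D0 and was above it in both libraries of D10. *CDH11*, *CDH2*, *CDH6* and *CDH4* each overlapped the next in that order.

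**Figure D4:**
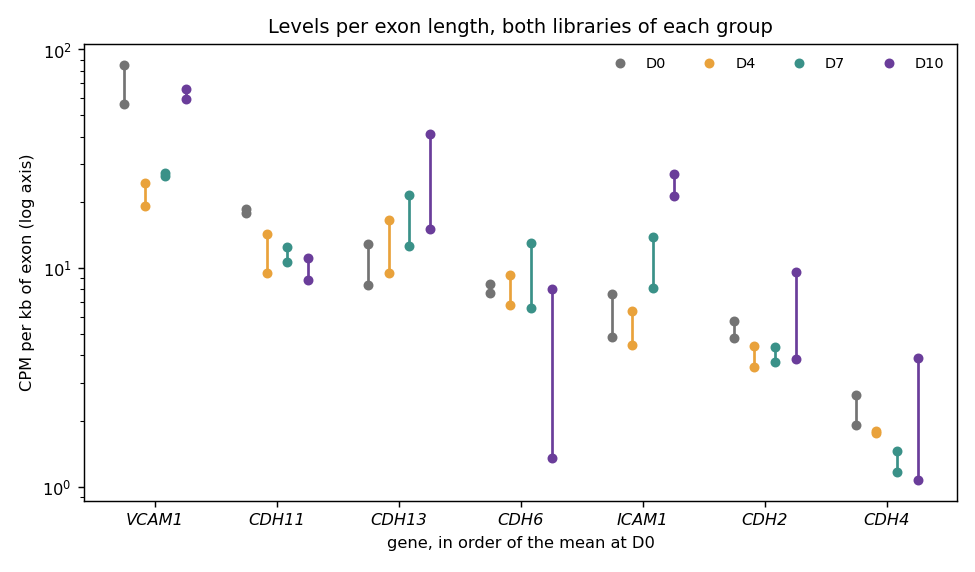
CPM per kb of exon (vertical, log axis) of the 7 tested adhesion genes in order of their mean at D0, with both libraries of each group as points joined by a line. VCAM1 lies between 56.1 and 85.2 at D0 and between 19.3 and 24.4 at D4, and ICAM1 lies between 4.86 and 7.63 at D0 and between 21.3 and 26.9 at D10.

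Patterns were compared between genes by Pearson's r of log2 CPM over the 8 libraries, which share the days and the 2 experiments, so r is a description. The genes most like *ICAM1* were *SETD3* (r = 0.974), *RHBDD1* (0.965) and *CTSS* (0.965), the last of which encodes the protease cathepsin S. *CTSS* went from 0.335 and 0.654 CPM in the D0 libraries to 8.54 and 9.69 CPM in the D10 libraries. For *VCAM1* they were *SVEP1* (0.948), an extracellular matrix protein that binds integrins, *NBPF19* (0.919) and *ALDH3A2* (0.907).

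The genes most like *CDH11* were *PBLD* (0.978), *C1QL1* (0.972) and *PLSCR4* (0.966), and all 3 were lower in both D10 libraries than in both D0 libraries. For *CDH13* they were *AHI1* (0.990), *STARD13* (0.985) and *ZNF814* (0.985). For *CDH6*, *SSC5D* (0.986), *SMAD3* (0.980), which encodes a transducer of TGF-β signals, and *PLEKHA6* (0.974) were likewise low in the D10 library of experiment 2, where *SMAD3* was at 148 CPM against 452 CPM in experiment 1. For *CDH2*, *ZRANB1* (0.989), *HPS4* (0.985) and *ADARB1* (0.984), and for *CDH4*, *UCK2* (0.976), *SLC20A2* (0.970) and *SLC8A1* (0.964), were higher in that library than in both D0 libraries and the other D10 library. Among the adhesion genes themselves, r was 0.859 for *CDH2* and *CDH4*, -0.79 for *CDH2* and *CDH6*, and 0.424 for *ICAM1* and *VCAM1*.

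Other adhesion genes were read from 7 further lists. In each of them edgeR called 0 genes on each day, where 0%, 0% and 0.29% of all genes were called at D4, D7 and D10, and the calls that follow are those of the replicate block, which called 4.99% of all genes at D10. Of 18 other cadherins, 11 were in the table and 2 were tested, *CDH15* and *CDH24*, and neither was called with the block. *CDH24* was at 12.5 and 13.5 CPM in the D0 libraries and at 9.49 and 11.1 CPM in the D10 libraries, a log2 fold change of -0.33 ± 0.28. The median log2 fold change of these 2 at D10 was -0.45, beside 0.00 for all genes.

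Of 22 protocadherins and related large cadherins, 11 were tested, and at D10 the block called 2 lower, *PCDH7* and *FAT3*. *PCDH7*, a protocadherin, was at 33.5 CPM at D0 and 8.30 at D10 in experiment 1, and at 53.7 and 10.7 CPM in experiment 2. Its log2 fold change was -2.20 ± 0.54, with an edgeR adjusted p of 0.167, or 0.00271 with the replicate block, and it was also called with the block at D7. *FAT3*, a giant atypical cadherin, went from 5.19 to 0.791 CPM and from 6.91 to 0.0788 CPM. Its log2 fold change was -3.77 ± 0.89, and its edgeR adjusted p was 0.148, or 0.0205 with the block, and the last value is 1 count. The median of the 11 was 0.10, and the 9 others included *FAT1*, the highest of them, at 0.10.

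Of 13 cytoplasmic partners of cadherins, 10 were tested, and the block called *PKP4* lower and *AFDN* higher at D10. *PKP4* encodes plakophilin 4, an armadillo protein of cell junctions, and went from 48.8 to 22.4 CPM in experiment 1 and from 56.8 to 29.6 CPM in experiment 2. Its log2 fold change was -1.02 ± 0.27, with an edgeR adjusted p of 0.198, or 0.0353 with the replicate block. *AFDN*, which encodes afadin, the link of nectins to actin, went from 17.2 to 28.6 CPM and from 27.6 to 51.1 CPM, with a log2 fold change of 0.83 ± 0.42 and an edgeR adjusted p of 0.752, or 0.0205 with the block. The catenins of the classical cadherin complex, *CTNNA1*, *CTNNB1* and *CTNND1*, had log2 fold changes of -0.30, -0.07 and -0.29, none of them called. The median of the 10 was -0.21.

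**Figure D5:**
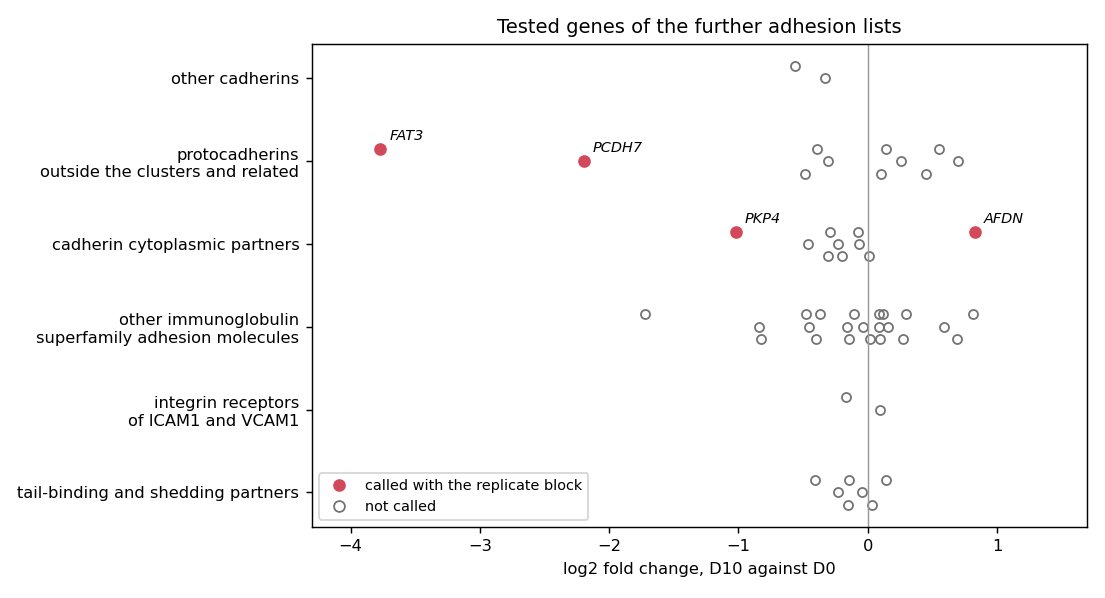
Log2 fold change at D10 against D0 (horizontal axis) of the tested genes of 6 further adhesion lists (rows), with filled points for genes called with the replicate block and open points for the others. The 4 filled points are FAT3, PCDH7 and PKP4 below 0 and AFDN above 0.

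Of 31 other immunoglobulin superfamily adhesion molecules, 22 were tested, 11 with a positive and 11 with a negative log2 fold change at D10, and the block called 0, 0 and 0 at the 3 days. The median was -0.01. The largest changes among those of at least 1 CPM were those of *NFASC* (neurofascin, -1.72 ± 0.47, edgeR adjusted p = 0.219, or 0.0550 with the block) and *ALCAM* (-0.84 ± 0.27, adjusted p = 0.342, or 0.0698 with the block). *ALCAM* was at 571 and 635 CPM at D0 and at 382 and 291 CPM at D10, and the groups did not overlap.

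Of the 9 integrin chains that form receptors for ICAM1 and VCAM1, 2 were tested, *ITGA4* and *ITGB1*, the chains of the main VCAM1 receptor. *ITGB1* was at 2239 and 2095 CPM at D0 and at 3075 and 1563 CPM at D10, and *ITGA4* at 19.6 and 22.6 and at 26.3 and 11.2 CPM. Both were higher at D10 in experiment 1 and lower in experiment 2, and neither was called with the block. *ITGB2*, the shared chain of the leukocyte receptors of ICAM1, had at most 5 counts per library. None of the 3 genes in the table among the selectins and *CX3CL1* had enough counts to be tested. Of 10 genes for proteins that bind the ICAM1 tail, shed adhesion molecules or modify them, 7 were tested and none was called with the block. The largest changes among them were those of *EZR* (ezrin, -0.41 ± 0.25) and *ADAM9* (a sheddase, -0.23 ± 0.35).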

How the data were processed

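For 8 libraries the authors deposited read counts per gene as whole numbers, without normalization. Per the labels, RNA was poly(A)-selected and made into stranded libraries, and the submitters' processing notes name STAR 2.5, DESeq2 and GRCh38. The counter, its strand setting and the annotation are not given in the sources used here. The 8 columns of normalized values were not used, and 1 header that reads DO was taken as D0 replicate 1. Of the gene identifiers, 99.6% are in GENCODE 29, which gave positions and exon lengths.

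The 8 genes, the further lists and the tests were chosen with earlier results of these data known. Genes were filtered with filterByExpr (13798 kept), scaled with TMM (factors 0.948 to 1.08) and tested with edgeR 4.0.16 (R 4.3.3, glmQLFit and glmQLFTest, all 8 libraries by group), with Benjamini-Hochberg adjustment over all genes and a threshold of 0.05. The SE is the log2 fold change divided by the root of the F statistic. Alternatives were DESeq2 1.42.0, its size factors, a filter of at least 10 counts per library, no filter at all, only the libraries of the compared groups, a replicate block and leaving out each library. After the data were seen, the block was also combined with leaving out each library, and slopes were compared between experiments. Log2 CPM used a prior count of 2. The scripts were tested on simulated counts with genes changed at D10. EdgeR called 0 of 100 genes changed 2-fold and 57 of 100 changed 4-fold. With the block 68 and 100 were called, and 18 of its 186 calls were unchanged genes. DESeq2 called 16 and 96, and no unchanged gene.

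The sources used here name 2 independent experiments, and the replicate numbers were taken to mark them and so to pair the libraries. Across genes, the deviations from group means of libraries with the same number correlated at r = 0.418 to 0.722 in all 6 pairs of groups. The p-values weigh a difference against the spread between these libraries, which all come from a single fibroblast strain. With the block, that is the spread left after the difference between the 2 experiments is removed. Genes named from the further lists are those called at D10 and the 2 of at least 1 CPM with the largest change. The 3 genes most like each member were named by Pearson's r over 12793 genes of at least 1 CPM. Other names were chosen after their values were seen. Figures were drawn with Python 3.11.15.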

Additional observations from a re-analysis of the deposited data

Results flagged for a closer look

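Changes against D0 that went in opposite directions in the 2 experiments are listed here, with log2 values. *VCAM1* at D10 changed by 0.23 in experiment 1 and -0.53 in experiment 2. *CDH2* at D10 changed by -0.31 and 0.74, and *CDH4* at D10 by -0.82 and 0.56. *CDH6* changed by -0.32 and 0.28 at D4 and by -0.37 and 0.77 at D7. Each experiment has 1 library per day, so these differences were not tested day by day. The difference in slope over all days was not called by edgeR for any of these 4 genes (adjusted p = 0.993 for each). Of all tested genes, 36.6% changed in opposite directions at D10, 41.3% at D4 and 37.6% at D7.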

How the results depend on the processing

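With 2 libraries per group, calls depended on the design, the method and the filter. Adhesion genes called by edgeR numbered 0 at D4, D7 and D10. With DESeq2, with no filter or with the replicate block, 1 was called at D4 and at D7, *VCAM1* each time. At D10 it was 1 (*ICAM1*) with DESeq2 or no filter and 2 (*ICAM1*, *CDH13*) with the block. At D10 against D7 DESeq2 called 1 (*VCAM1*). On the slope DESeq2 called 2, no filter 1 (*ICAM1*), the block 2 and the fits without 1 library 0 to 1 (*ICAM1*, without D0 replicate 2). Between experiments DESeq2 called 2 (*CDH13*, *CDH2*), no filter 3 (these and *CDH4*), and the fits without 1 library 1 to 2, with *CDH6* added without either D10 library. With the replicate block and without 1 library, chosen after seeing the data, the counts were 0 to 2 at D4, 0 to 4 at D7, 1 to 6 at D10 and 1 to 3 on the slope, while the same fits called 0 to 491, 0 to 819, 113 to 1906 and 156 to 822 of all genes. The calls added without either D10 library were *CDH11* at D4, *CDH4*, *CDH11* and *CDH13* at D7, and *CDH4* at D10. Without D10 replicate 1, *CDH2*, *CDH6* and *CDH11* were also called at D10.

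Over all genes at D4, D7 and D10, edgeR called 0, 0 and 40, the block 38, 172 and 688, DESeq2 44, 112 and 379, and no filter 21, 93 and 371. At D10 at least 10 counts left 20, the compared groups only 0, and the fits without 1 library called 0 (without either D0 library), 11 to 15 (without D10 replicate 2 or a library of D4 or D7) or 155 (without D10 replicate 1). On the slope the fits without 1 library called 36 to 155, and between experiments 2121 to 5602, the lowest in both without a D0 library. On the slope edgeR called 163, DESeq2 488 and the block 593. At D10 against D7 DESeq2 called 66, no filter 77 and the block 44, and edgeR 47 without D10 replicate 1.

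Changes that reversed were small or rested on 1 library. *CDH6* at D4 was 0.011 with DESeq2's size factors, 0.011 with DESeq2 and 0.017 with the block. Without 1 library, *ICAM1* at D4 ranged from -0.49 to 0.16, *CDH6* at D4 from -0.25 to 0.20, *CDH13* at D4 from -0.16 to 0.64, *CDH6* at D7 from -0.30 to 0.70, *VCAM1* at D10 from -0.45 to 0.15, *CDH2* at D10 from -0.45 to 0.88, *CDH4* at D10 from -1.08 to 0.79, *CDH6* at D10 from -2.55 to 0.00 and *CDH13* at D10 against D7 from -0.18 to 1.28. With the block as well, these ranges were -0.59 to 0.29, -0.50 to 0.43, 0.09 to 0.47, -0.65 to 1.01, -0.43 to 0.13, -0.31 to 0.76, -1.03 to 0.75 and -2.79 to 0.19, without the last. *VCAM1* at D4 and D7, *ICAM1*, *CDH11* and *CDH13* at D10 kept their direction in every fit. So did *CDH2*, *CDH4* and *CDH11* at D4 and D7, and *ICAM1* and *CDH13* at D7. Where a group is left with 1 library, that library is assumed to vary like the other groups. The causes were not tested.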
